A study of Mus musculus with 79 samples.

Results

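Skeletal muscle takes up most of the glucose that insulin clears from the blood, and 9 genes that carry or restrain the insulin signal in muscle were followed here through quadriceps of the BXD mice: Insr, Irs1, Irs2, Pik3r1, Akt2, Grb10, Grb14, Tbc1d1 and Tbc1d4. They were chosen by name from the gene symbols of the deposited array table and make up 9 of its 22335 gene symbols and 11 of its 35556 probesets, a probeset being the group of array probes that reports 1 transcript. Insr and Akt2 each had an additional probeset, and the brighter one on average stands for the gene. All 9 were measured on every array and no filter on low values removed any of them.

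Insulin binds its receptor, the tyrosine kinase encoded by Insr, and the receptor phosphorylates the docking proteins IRS1 and IRS2. These recruit phosphoinositide 3-kinase through its regulatory subunit p85α (Pik3r1), the lipid product activates the kinase AKT2, and AKT2 phosphorylates the Rab GTPase-activating proteins TBC1D1 and TBC1D4 (AS160), which otherwise hold the glucose transporter GLUT4 inside the fibre. GRB10 and GRB14 are adaptors that bind the activated receptor and restrain it. Much of this control is exerted on proteins by phosphorylation, and the arrays measured only transcript levels.

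All animals were male. They came from BXD strains, inbred lines whose parents are C57BL/6J (B6) and DBA/2J (D2), and from these parents. They received a chow diet (CD, Harlan 2018) or a high fat diet (HFD, Harlan 06414) that began at 8 weeks of age, and all of them were fasted overnight and sacrificed at 29 weeks, so every value is a fasted one. RNA of about 5 animals of a strain on 1 diet was pooled for each of the 79 arrays, 42 on CD and 37 on HFD, of which 37 strains had both. The array is therefore the replicate, and animals of a strain cannot be compared with each other. The labels give 2 batches that differ in RNA extraction and in array run, batch 1 with 18 arrays on CD and 17 on HFD and batch 2 with 24 and 20.

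The deposited values are scores scaled to a mean of 8 and an SD of 2 on every array, and they behave like logarithms. A difference of 1 would be a doubling if the log2 SD of an array were 2, so folds are called nominal, and levels of different genes are not compared. Markers of muscle fibres were bright on both diets (mean of 8 markers 14.67 ± 0.05 SD on CD and 14.69 ± 0.08 on HFD). The 11 adipocyte markers were higher in HFD for 8 and lower for 1, their mean going from 9.64 (9.18 to 10.30) to 10.01 (9.28 to 10.80), and 6 of 7 macrophage and 4 of 5 endothelial markers were called higher, against 0 of 5 fibroblast markers. In such bulk tissue fewer cells of a type and less RNA per cell cannot be told apart. Strain BXD63 went against its diet labels over the array as a whole: its HFD minus CD profile correlated at r = -0.28 with the mean profile of the other 36 strains, whose own values lay between 0.14 and 0.48. The counts of members and pathway genes called are therefore also given without it. The HFD arrays of BXD79, BXD69 and BXD62 lay farthest from their diet mean (SD of the deviation over probesets 0.345, 0.340 and 0.336, the next HFD array 0.291).

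The docking protein genes Irs1 and Irs2 moved in opposite directions with diet, and the sequences around their annotated starts are shown because they share a pair of short motifs. The windows come from RefSeq (GRCm38.p6), run from 250 bases before the start to 50 after it, and lie at chr1:82291390-82291689 for Irs1 and chr8:11008880-11009179 for Irs2, both on the minus strand and written 5′ to 3′ along the gene. Capitals mark the E-box CACGTG and the insulin response element core CAAAACA, which reads TGTTTTG on the opposite strand.
Irs1: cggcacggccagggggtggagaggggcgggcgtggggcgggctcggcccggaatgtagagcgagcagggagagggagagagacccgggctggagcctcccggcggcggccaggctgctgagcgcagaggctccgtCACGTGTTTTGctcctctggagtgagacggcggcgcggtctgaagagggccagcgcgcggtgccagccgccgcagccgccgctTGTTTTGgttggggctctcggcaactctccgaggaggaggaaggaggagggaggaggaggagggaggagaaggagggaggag
Irs2: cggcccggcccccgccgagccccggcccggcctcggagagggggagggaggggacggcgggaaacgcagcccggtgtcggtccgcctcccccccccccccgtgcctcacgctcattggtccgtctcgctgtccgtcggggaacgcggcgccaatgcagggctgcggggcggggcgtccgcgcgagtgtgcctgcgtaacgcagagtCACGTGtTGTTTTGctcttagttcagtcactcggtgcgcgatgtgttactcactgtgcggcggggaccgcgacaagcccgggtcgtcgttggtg
In Irs1 the E-box begins at base -115 counted from the start and runs into an insulin response core at -111 with which it shares bases, and a further core lies at -32. In Irs2 the E-box at -44 is followed after a single base by a core at -37. Both motifs were searched on both strands. The E-box was present in 7.15% and the insulin response core in 6.28% of 32851 promoter windows of this length, and 0.408% held both. None of the other 12 member windows (Pik3r1, Akt2, Grb10, Grb14, Tbc1d1 and Tbc1d4) held either motif, and no member window held the FOXO core GTAAACA, found in 3.65% of all windows. Insr had no entry in the table. A match describes the letters only, and the motifs were picked with these windows in view.

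Between diets, 5 of the 9 genes were called at an adjusted p below 0.05 in limma (diet and batch as terms, 79 arrays, Benjamini-Hochberg over all probesets). That is 55.6% of members, against 38.1% of all probesets. Irs1, Grb10 and Tbc1d4 were higher on HFD (18.9% of all probesets were called higher), and Insr and Irs2 were lower (19.3%). The sizes were small. The median absolute difference over the 9 members was 0.10, against 0.08 over all probesets, and the ranges of CD and HFD arrays overlapped for every member. The same 5 genes were called without BXD63 (39.6% of all probesets), with strain as a block (40.6%) and without the HFD arrays of BXD79, BXD69 and BXD62 (36.3%).

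**Figure D1:**
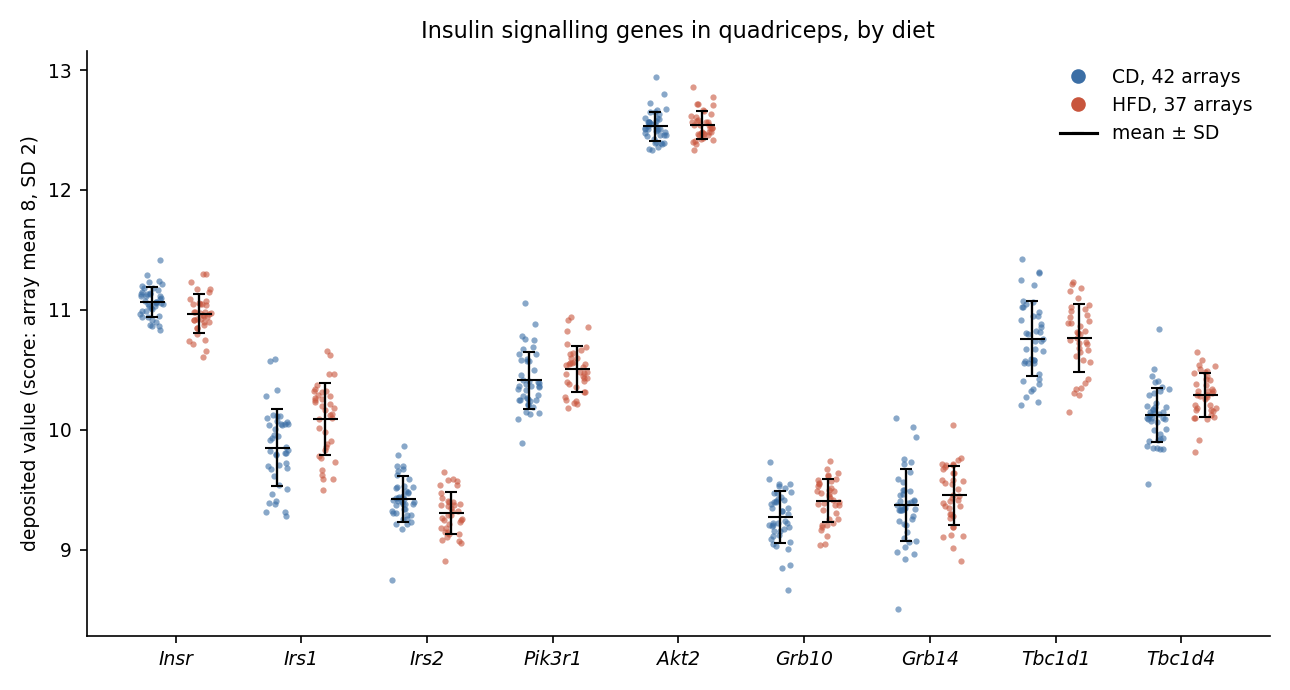
Deposited score (y axis, array mean 8, SD 2) of the 9 insulin signalling genes (x axis) in quadriceps, 1 point per array, with 42 CD arrays in blue and 37 HFD arrays in red and bars for mean ± SD. The diets overlapped for every gene, and single arrays stood apart below the rest for Irs2 on CD (8.75) and Grb14 on CD (8.51).

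Insr, the receptor itself, was lower on HFD. On CD its score ranged from 10.84 (BXD63) through a median of 11.07 to 11.41 (BXD73), and on HFD from 10.61 (BXD75) through 10.97 to 11.30 (BXD69). The HFD arrays thus reached lower, while most of both ranges was shared. The difference was -0.10 (SE 0.03, adjusted p = 0.0102 in limma), a nominal fold of 0.933, and 27 of 37 strains were lower on HFD. Its other probeset gave the same difference (-0.10, SE 0.03, adjusted p = 0.00693) with 29 of 37 strains lower, and the 2 probesets correlated at r = 0.75 on CD and 0.76 on HFD. The array median fell by 0.017 on HFD, and when each array was centred on its median, Insr missed the threshold (-0.08, adjusted p = 0.0543 in limma, 39.3% of all probesets called) while its other probeset was just called (-0.08, adjusted p = 0.0496 in limma).

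Irs1, the docking protein through which insulin acts on glucose uptake in muscle, had the largest diet difference among the members. CD scores ran from 9.28 (BXD71) through a median of 9.84 to 10.59 (BXD43), and HFD scores from 9.50 through 10.17 to 10.66. The lowest and the highest strain were BXD71 and BXD43 on both diets. The difference was 0.24 (SE 0.07, adjusted p = 0.00380 in limma), a nominal fold of 1.18, with 30 of 37 strains higher. Single strains spanned -0.46 (BXD68) to 1.15 (BXD73).

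Irs2, the paralog that is also prominent in liver and β-cells, was lower on HFD, opposite to Irs1. CD scores ran from 8.75 (BXD68) through 9.41 to 9.86 (BXD43), and HFD scores from 8.91 (BXD61) through 9.29 to 9.65 (BXD43). The BXD68 array on CD lay far below its group, and BXD43 was again highest on both diets. The difference was -0.12 (SE 0.04, adjusted p = 0.0189 in limma), a nominal fold of 0.922, with 30 of 37 strains lower. Of the 7 strains that were higher, BXD68 had the largest difference, 0.62, and without that strain the value over the panel was -0.14 (adjusted p = 0.00353 in limma). Centred on array medians, Irs2 had a difference of -0.10 and missed the threshold (adjusted p = 0.0526 in limma).

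**Figure D2:**
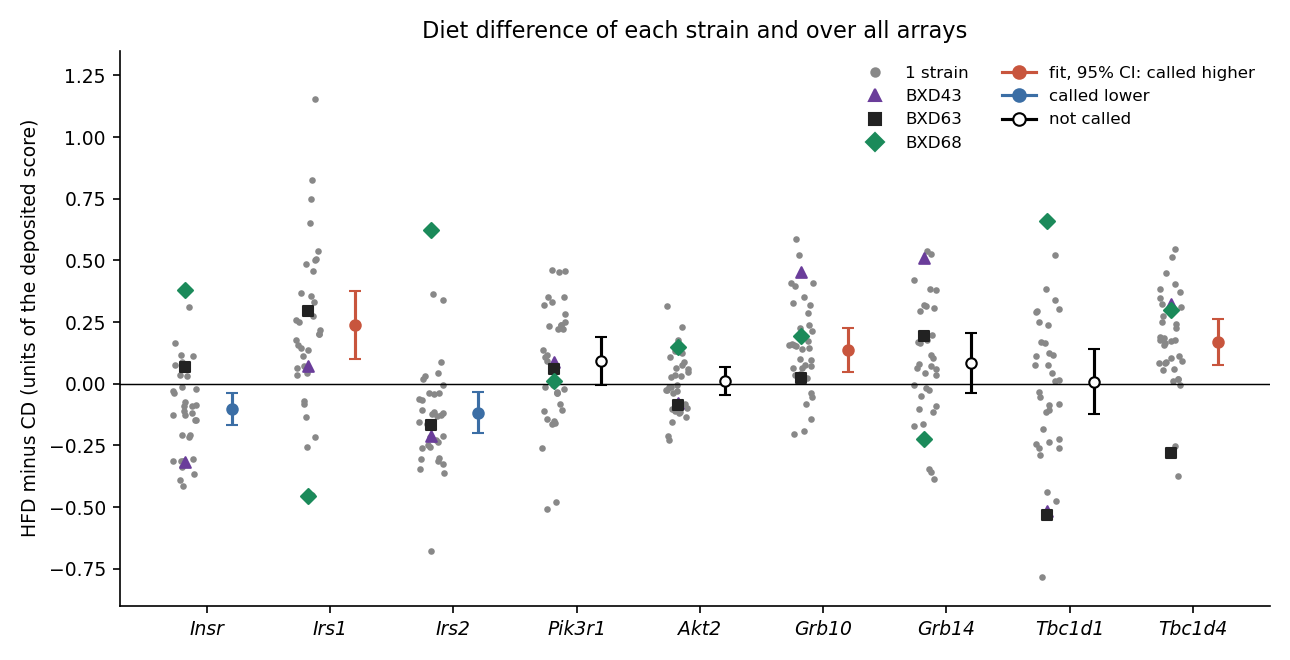
HFD minus CD in units of the deposited score (y axis) for each gene (x axis), 1 grey point per paired strain, with BXD43, BXD63 and BXD68 marked, and beside them the limma estimate over all arrays with its 95% confidence interval. The intervals of Insr and Irs2 lie below 0, those of Irs1, Grb10 and Tbc1d4 above it, and BXD68 lies opposite to the estimate for Insr, Irs1, Irs2 and Grb14.

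Downstream of the docking proteins, neither Pik3r1 nor the representative probeset of Akt2 was called. Pik3r1 scores were 9.89, 10.37 and 11.05 on CD (lowest, median, highest) and 10.18, 10.49 and 10.94 on HFD. Its difference was 0.09 (95% interval -0.0047 to 0.19, adjusted p = 0.128 in limma) and 21 of 37 strains were higher, so a difference of up to 0.19 was within the interval. Akt2, the AKT isoform tied to glucose transport, ran from 12.34 through 12.51 to 12.94 on CD and from 12.34 through 12.52 to 12.86 on HFD, with a difference of 0.01 (-0.04 to 0.07, adjusted p = 0.784 in limma). Its other probeset was called higher on HFD (0.08, SE 0.03, adjusted p = 0.0140 in limma, 27 of 37 strains). The probesets correlated at r = 0.72 on CD and 0.77 on HFD.

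Which of these probesets reports Akt2 alone is uncertain. For the probesets of the other 8 members, 8 to 10 of the 10 named probesets nearest in number belong to genes of the member's own chromosome. For the representative Akt2 probeset, 9 of these 10 belong to chromosome 11 and 0 to chromosome 7, where Akt2 lies. All 10 neighbours of the other probeset belong to chromosome 7. Both carry the symbol Akt2 in the deposited table, so the diet difference and the correlation across diets are given for each, and the other values are of the representative one. With the chromosome 7 probeset in its place, 6 of the 9 members were called, a choice made after its values were seen.

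Of the brakes, Grb10 was called and Grb14 was not, and the difference between them was not tested. Grb10, an imprinted adaptor that restrains the receptor, ranged from 8.67 (BXD83) through 9.27 to 9.73 (BXD92a) on CD and from 9.04 (BXD68) through 9.43 to 9.74 (BXD69) on HFD. The HFD arrays lacked the low end of the CD range. Its difference was 0.14 (SE 0.05, adjusted p = 0.0117 in limma), a nominal fold of 1.099, with 31 of 37 strains higher, and was not called with adipocyte or olfactory receptor probesets in the model. Grb14 ranged from 8.51 (BXD43) through 9.36 to 10.10 (BXD65) on CD and from 8.90 (BXD49) through 9.44 to 10.04 (BXD84) on HFD. Its difference of 0.08 (-0.04 to 0.21, adjusted p = 0.290 in limma) was not called, and 24 of 37 strains were higher. With strain as a block, which uses the pairing, the difference was 0.09 with a smaller SE (0.04, against 0.06). It then lay just short of a call (adjusted p = 0.057 in limma).

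Of the Rab GTPase-activating proteins at the GLUT4 step, Tbc1d4 was higher on HFD and Tbc1d1 was not called. Tbc1d4 scores ran from 9.55 (BXD70) through 10.12 to 10.84 (BXD103) on CD and from 9.82 (BXD63) through 10.29 to 10.65 (BXD61) on HFD. The difference was 0.17 (SE 0.05, adjusted p = 0.00248 in limma), a nominal fold of 1.12, and 33 of 37 strains were higher, the highest share of any member. With the mean of olfactory receptor probesets in the model, described after the single genes, the difference was 0.12 and was not called (adjusted p = 0.0672 in limma). The array lowest on HFD belonged to BXD63, and without that strain the difference was 0.18 (adjusted p = 0.00101 in limma). Tbc1d1 scores ran from 10.21 through 10.75 to 11.42 on CD and from 10.15 through 10.80 to 11.23 on HFD, with a difference of 0.01 (-0.12 to 0.14, adjusted p = 0.933 in limma). Its strains spread both ways, from -0.78 (BXD96) to 0.66 (BXD68), with 19 higher and 18 lower.

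Over the 5 called genes, 16 of 37 strains showed all 5 in the direction of the whole panel, 12 showed 4 and 6 showed 3. BXD79 showed 1. Within batch 1 alone none of the 9 was called (0 of 9 in limma, 1 with an unadjusted p below 0.05, 12.6% of all probesets) and within batch 2 alone Irs1 and Tbc1d4 were (24.4%). In batches 1 and 2 the differences were -0.08 and -0.11 for Insr, 0.22 and 0.26 for Irs1, -0.13 and -0.11 for Irs2, 0.13 and 0.14 for Grb10 and 0.16 and 0.17 for Tbc1d4. The diet by batch term called 0 members in limma, and 0 had an unadjusted p below 0.05. It called 0.0% of all probesets, and 0 of 35556 had an unadjusted p below 0.05, so the deposited values look centred within batch and diet already. Such centring makes the differences of the batches alike by construction, so their likeness is no replication and this term is no usable test.

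Adipocyte markers and a signal in olfactory receptor probesets moved with diet beside these genes. With the adipocyte marker mean added to the model, Grb10 had a difference of 0.13 and an adjusted p of 0.0605 in limma and the other 4 called genes kept their calls (30.1% of all probesets were called). The other probeset of Insr lost its call there (difference -0.08, adjusted p = 0.0973 in limma). With strain as a block as well, all 5 were called, Grb10 with a difference of 0.19 (adjusted p = 0.00221 in limma, 23.4% of all probesets called). Across strains, the diet difference of no member was called with that of the adipocyte markers (r from -0.25 to 0.20, adjusted p = 0.999 for each, 0 of 9 with an unadjusted permutation p below 0.05, 0.247% of all probesets called). The mean of 1154 probesets for olfactory receptors, genes of the nasal epithelium, was 6.10 ± 0.05 (SD) on CD and 6.05 ± 0.05 on HFD and lower on HFD in 28 of 37 strains. In BXD63 it was 6.06 on CD and 6.10 on HFD. With that mean in the model Grb10 (difference 0.10, adjusted p = 0.113) and Tbc1d4 (difference 0.12, adjusted p = 0.0672) lost their calls in limma, and Insr, Irs1 and Irs2 kept theirs (31% of all probesets called). The chromosome 7 probeset of Akt2 lost its call there too (difference 0.07, adjusted p = 0.0681 in limma). The part of these signals in the diet differences was not tested.

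In the wider pathway, 62 further genes in lists by role gave 21 calls, 11 higher and 10 lower, or 33.9% against the background of 38.1%. With strain as a block 29 were called, 13 higher and 16 lower, or 46.8% against 40.6%, and after quantile normalization 27, 11 higher and 16 lower, or 43.5% against 37.4%. Centred on array medians 23 were called, 14 higher and 9 lower (37.1% against 39.3%), with the olfactory receptor mean added 25, 8 higher and 17 lower (40.3% against 31%), with the adipocyte marker mean added 12, 6 each way (19.4% against 30.1%), and without BXD63 22, 11 each way (35.5% against 39.6%). The share lay below the background or above it, and the balance of directions turned, depending on the model. Counts by role below are those without the block, which gained 8 calls and lost 0 with it: 2 receptors or ligands (Igf2, Igf2r), 1 PI3-kinase or AKT gene (Rictor), 2 brakes (Ptpn1, Phlpp2) and 3 AKT targets (Gsk3b, Eif4ebp1, Hk2). The median absolute difference of the 62 genes was 0.05, against 0.08 over all probesets. The lists, like the members, were drawn up with earlier results of these data known.

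Ligands and receptors of the insulin and insulin-like growth factor (IGF) family had 4 calls among 6 genes (66.7%, against 38.1% of all probesets). Igf1, the growth factor, was higher on HFD (9.29 ± 0.25 SD on CD, 9.45 ± 0.27 on HFD, difference 0.16, SE 0.06, adjusted p = 0.0239 in limma). Igfbp5, an IGF-binding protein, was higher by 0.19 (SE 0.07, adjusted p = 0.0280 in limma). Igf1r, the IGF receptor, was lower, as Insr was, by -0.12 (SE 0.04, adjusted p = 0.0138 in limma). Insrr, an orphan receptor of the same family, had the largest drop of the lists (-0.21, SE 0.03, adjusted p = 9.99e-09 in limma), but its mean of 7.62 lay below the median probeset mean of 7.86, in the dim part of the array.

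Among 11 adaptors beside the docking proteins, Sh2b2 (0.07, adjusted p = 0.0302 in limma) and Cbl (0.14, adjusted p = 0.000141 in limma) were higher and 9 were not called (18.2% called, against 38.1% of all probesets). PI3-kinase and AKT genes had 4 higher and 1 lower among 12 (41.7% called, near that share). Akt1, an AKT kinase linked more to growth than to glucose transport, was higher by 0.09 (SE 0.03, adjusted p = 0.00646 in limma). Pdpk1, the kinase that phosphorylates AKT, was higher by 0.09 (adjusted p = 0.000207 in limma), as was Mapkap1, a subunit of mTOR complex 2, by 0.10. Pik3cd, a catalytic subunit mostly of white blood cells, was lower (-0.11, adjusted p = 0.00201 in limma).

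The 15 further brakes gave 1 call higher and 3 lower (26.7% called, against 38.1% of all probesets). Socs3, a cytokine-induced inhibitor of the receptor and its docking proteins, was higher (8.58 ± 0.15 SD to 8.76 ± 0.20, difference 0.18, SE 0.04, adjusted p = 0.000137 in limma). These values are of the brighter of its 2 probesets. With all probesets of a gene averaged, 10 rather than 11 pathway genes were called higher. Socs3 was the only one of these 11 with a further probeset, whose own value is not given here. Trib3, a pseudokinase that binds AKT, was lower by -0.15 (SE 0.03, adjusted p = 3.83e-05 in limma), and Tsc1 and Prkcq by -0.10 each. Macrophage markers rose beside Socs3. Their part in it was not tested.

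AKT targets and genes of glucose transport had 2 higher and 4 lower of 18 (33.3% called, near the 38.1% of all probesets). Slc2a4, which encodes GLUT4, was 12.49 ± 0.16 (SD) on CD and 12.36 ± 0.17 on HFD, a difference of -0.14 (SE 0.04, adjusted p = 0.00245 in limma), with 8 of 37 strains higher. Foxo1, the transcription factor that AKT keeps out of the nucleus, was lower by -0.17 (SE 0.06, adjusted p = 0.0125 in limma). Gys1, muscle glycogen synthase, was lower by -0.08 (adjusted p = 0.00227 in limma) and Rab10, a Rab substrate of TBC1D4, by -0.06 (adjusted p = 0.0400 in limma), a call lost with arrays centred on their medians (-0.04, adjusted p = 0.167). Rab8a (0.13) and Rac1 (0.06) were higher. Hexokinase Hk2, at -0.09, was called with the block (adjusted p = 0.0335 in limma) and not without it (0.0622).

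**Figure D3:**
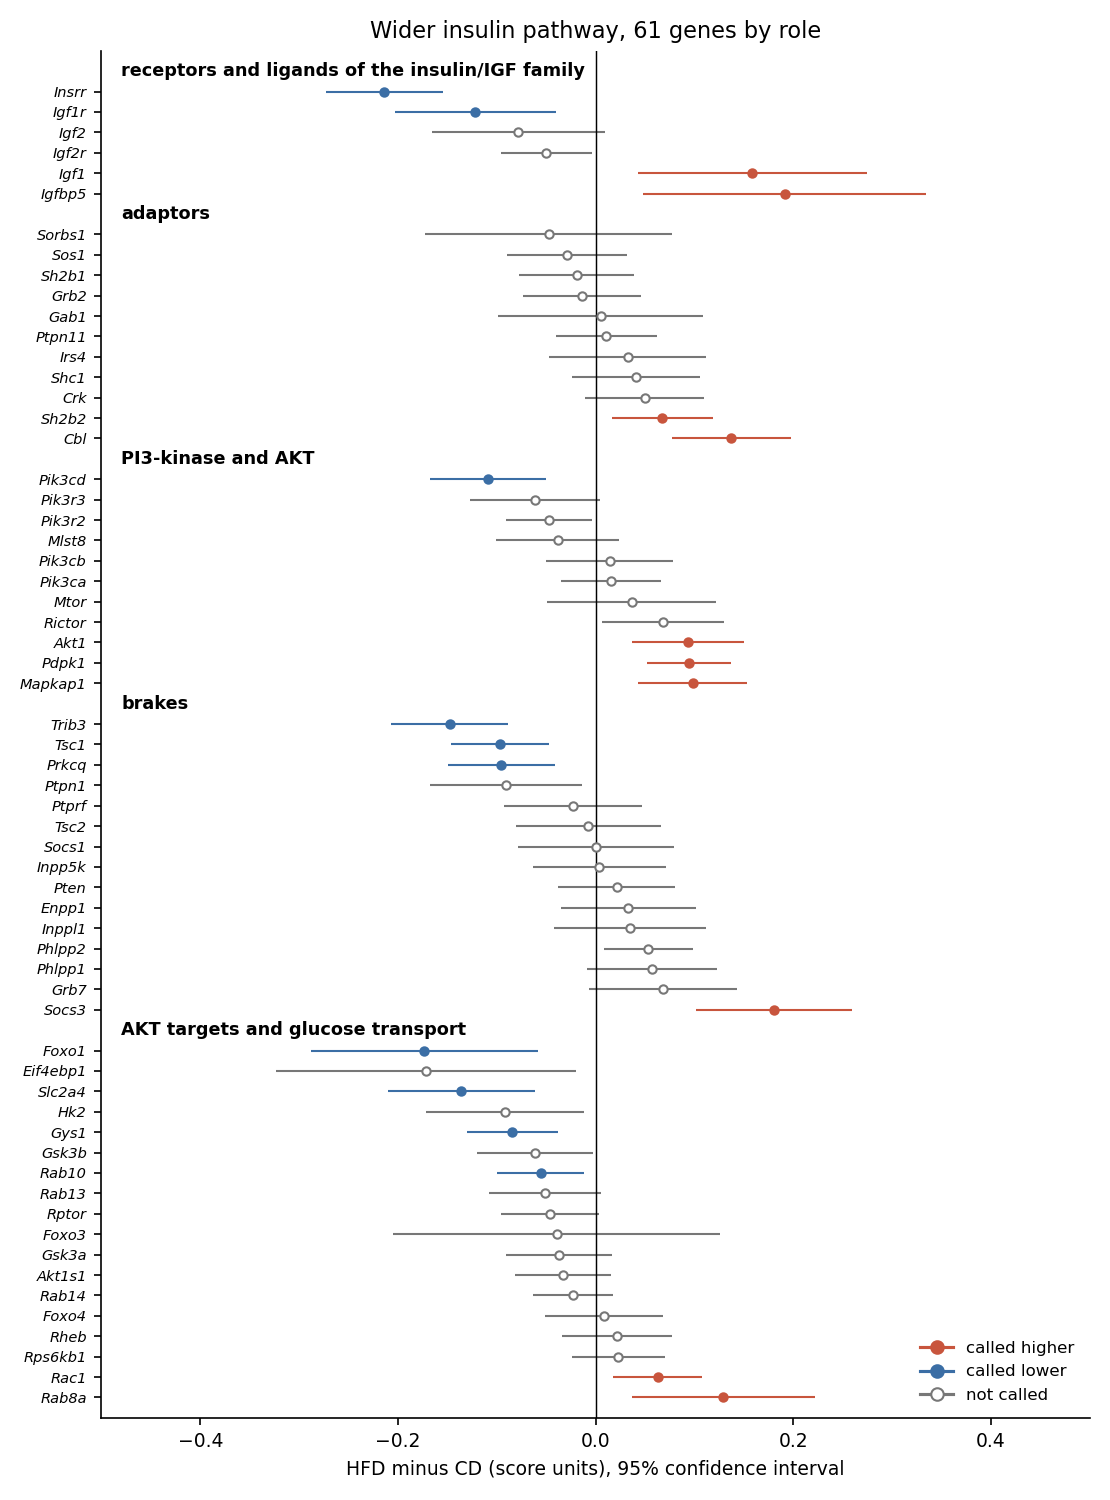
HFD minus CD in score units (x axis, point and 95% confidence interval from limma) of 61 further insulin pathway genes, grouped by role (y axis). Filled points were called, 10 higher (red) and 10 lower (blue), and most intervals lie within 0.3 of 0. A further gene, counted in the text as called higher, is not drawn.

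Strains differed in these genes on each diet. The median distance from the lowest to the highest strain over the 9 members was 1.16 on CD (a nominal 2.24-fold) and 0.76 on HFD (1.70-fold). Grb14 had the widest range on CD, 1.59 (3.01-fold), and Irs1 on HFD, 1.16 (2.23-fold). Akt2 and Insr had the narrowest, 0.60 and 0.58 on CD. The SD over CD strains was above that of 85.5% of probesets for Irs1, 85.1% for Tbc1d1 and 84.0% for Grb14, and above 19.03% for Akt2 and 20.28% for Insr. From the 10th to the 90th percentile, which is narrower by construction, the medians were 0.54 and 0.45.

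BXD43 was the lowest or highest strain 7 times of 36 (lowest and highest of 9 genes on 2 diets), BXD61 4 times, and BXD63 and BXD83 3 times each. BXD43 was highest on both diets for Irs1, Irs2 and Akt2 and lowest on CD for Grb14, while its Pik3r1 scores (10.40 and 10.49) lay near the median. Over all probesets its CD array ranked 8 of 42 and its HFD array 12 of 37 in distance from the diet mean, so these arrays did not lead the panel as a whole.

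Whether a strain that is high on CD is also high on HFD was asked by correlating the diets over 37 strains, with batch means removed. Of 9 relations, 5 were called (adjusted p below 0.05, Benjamini-Hochberg over all probesets, of which 10.6% were called). In strains with both arrays in batch 1 a single member was called, Irs2 (2.92% of all probesets), in those with both in batch 2 Grb10 (3.49%), and in the 8 with different batches 0 of 9 (0.0%, 2 with an unadjusted p below 0.05). Without the parental strains 3 were called (9.81%). The members' median r was 0.46, against 0.14 over all probesets and 0.24 over the brighter part of the array.

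Grb14 kept its strain order best (r = 0.62, permutation p = 6e-05, rho = 0.61, permutation p = 0.00011, adjusted p = 0.00121). Without the 2 strains farthest from the median on CD, BXD43 and BXD65, r was 0.56, and it was 0.79, 0.55 and 0.63 in strains with both arrays in batch 1 (12), both in batch 2 (17) and in different batches (8). Tbc1d4 followed (r = 0.55, permutation p = 0.00044, rho = 0.58, permutation p = 0.00025, adjusted p = 0.00726), with 0.47 without BXD70 and BXD103 and 0.36, 0.64 and 0.83 in the same subsets. Grb10 had r = 0.53 (permutation p = 0.00063, rho = 0.52, permutation p = 0.00119, adjusted p = 0.0108), 0.46 without BXD68 and BXD83, and 0.24, 0.71 and 0.57 in the subsets. These relations were above 0 in every subset.

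Tbc1d1 had r = 0.46 (permutation p = 0.00368, rho = 0.51, permutation p = 0.00165, adjusted p = 0.0395), 0.43 without BXD61 and BXD90 and 0.44, 0.37 and 0.76 in the subsets. Its call was lost without the parental strains (adjusted p = 0.0678) and without BXD79, BXD69 and BXD62 (0.0517).

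The relation of Akt2 rested on a pair of strains. It had r = 0.46 (permutation p = 0.00468, rho = 0.33, permutation p = 0.0467, adjusted p = 0.0438), but r was 0.12 without BXD43 and B6 and -0.57 in the 8 strains whose arrays were of different batches. Without BXD63 its adjusted p was 0.0502, which left 4 relations called. The chromosome 7 probeset of Akt2 was not called (r = 0.40, permutation p = 0.0139, rho = 0.29, permutation p = 0.0793, adjusted p = 0.0977, 0.15 without B6 and BXD43), and with it in place of the representative one 4 relations were called.

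The remaining 4 relations were not called. Pik3r1 had r = 0.42 (permutation p = 0.0095, rho = 0.42, permutation p = 0.011, adjusted p = 0.0791) and Irs1 r = 0.40 (permutation p = 0.0139, rho = 0.39, permutation p = 0.0174, adjusted p = 0.09996), which was 0.29 without B6 and BXD43. By batch, Irs1 had 0.78 in batch 1, 0.47 in batch 2 and -0.45 in the 8 strains with arrays of different batches. Irs2 had r = 0.30 (permutation p = 0.0684, rho = 0.37, permutation p = 0.025, adjusted p = 0.269). By batch, Irs2 had 0.84 in batch 1, -0.25 in batch 2 and 0.25 in the strains with arrays of different batches. BXD43 had both arrays in batch 1, where Akt2 also had its highest value (0.78). Insr had the lowest, r = 0.13 (permutation p = 0.439, rho = 0.11, permutation p = 0.506, adjusted p = 0.720).

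**Figure D4:**
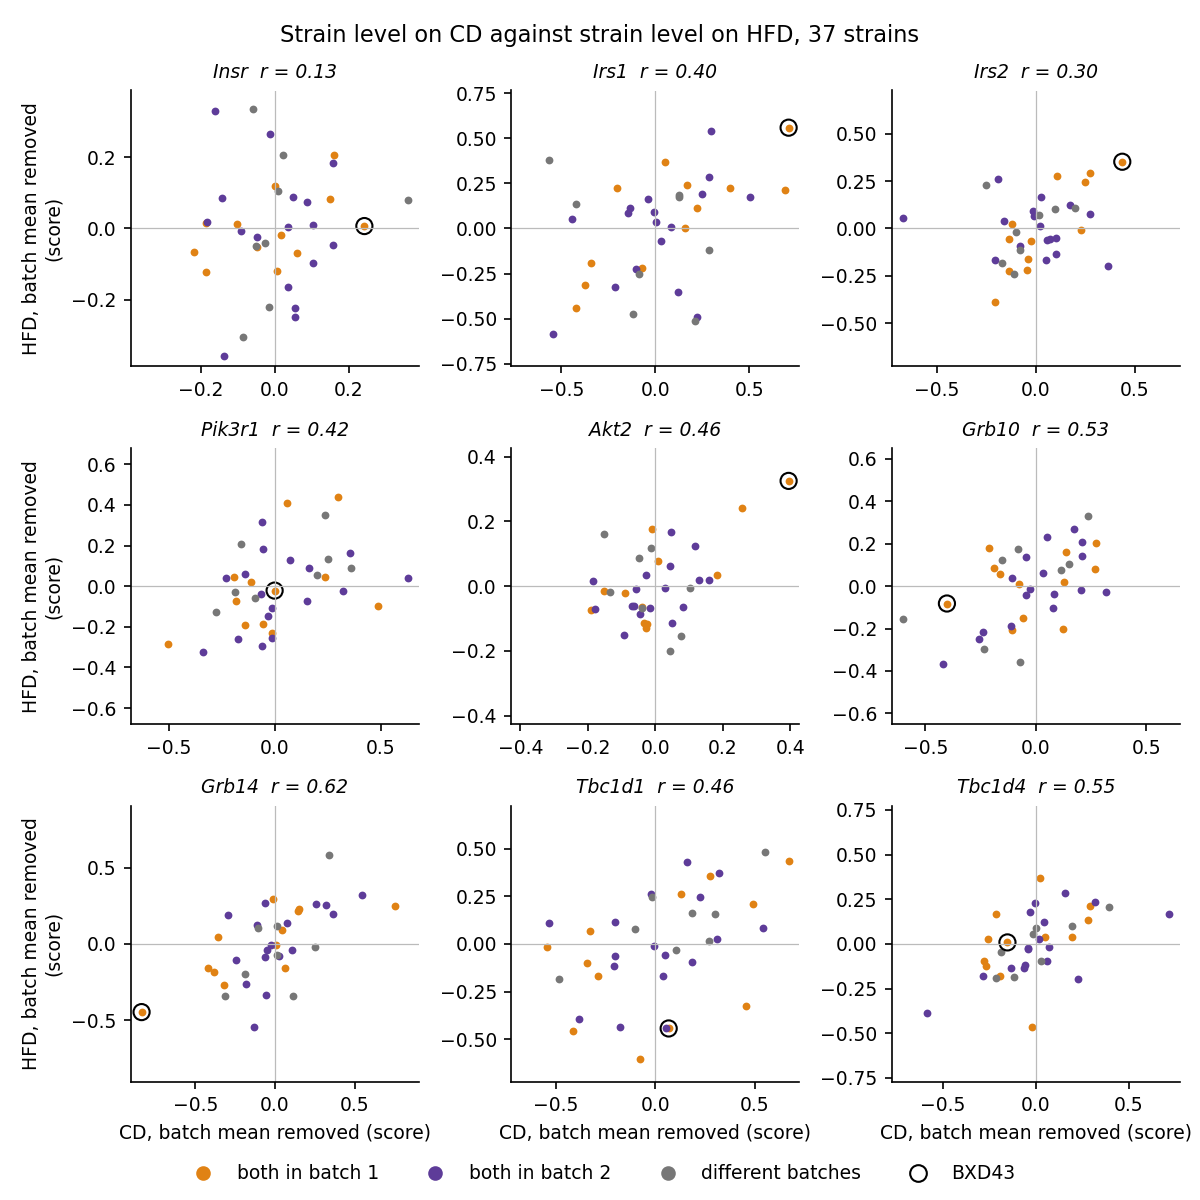
Score on CD (x axis) against score on HFD (y axis), each less its batch mean, for the 9 genes, 1 point per paired strain (37), coloured by the batches of its arrays and with BXD43 circled. Grb14, Tbc1d4 and Grb10 rise along the diagonal, Insr does not (r = 0.13), and in Akt2 BXD43 and B6 lie at the upper right.

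The parental strains did not differ detectably in these genes. In a limma fit with a coefficient per strain, 0 of 9 members were called between B6 and D2 and 0 had an unadjusted p below 0.05, with 1.26% of all probesets called. These counts take the representative probeset of each gene. The chromosome 7 probeset of Akt2 differed by 0.23 (B6 minus D2, SE 0.10, adjusted p = 0.505 in limma), which was not called either. Each parent had a single array per diet, which limits this comparison. The largest differences were 0.37 for Irs1 (B6 10.57 and 10.31, D2 10.04 and 10.10, on CD and HFD, SE 0.22, adjusted p = 0.763 in limma) and -0.34 for Grb14 (B6 8.98 and 9.51, D2 9.49 and 9.68, SE 0.17, adjusted p = 0.621 in limma).

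Few pairs of members were called as correlated within a diet. Of 36 pairs, examined on each diet (72 relations), 1 was called on CD and 0 on HFD after adjustment over all probesets, while 9 and 8 had an unadjusted permutation p below 0.05 and 2 had it on both diets. The background was 0.459% of probeset relations called on CD and 2.46% on HFD. Of the pairs, 13 were above 0 and 18 below 0 on both diets.

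The pair called on CD joined the brake Grb14 with Tbc1d4 (r = 0.59, permutation p = 5e-05, rho = 0.57, adjusted p = 0.0244, 42 arrays). It was 0.60 without the 2 farthest strains and 0.66 and 0.59 within batches 1 and 2. On HFD the same pair had r = 0.05 (adjusted p = 0.989, 37 arrays), and the difference between diets was not tested. Tbc1d1 and Tbc1d4, paralogs at the same step, ran opposite on CD (r = -0.50, adjusted p = 0.0824, not called, -0.38 and -0.63 within batches) and had r = 0.06 on HFD.

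Pik3r1 and Tbc1d1 were the pair most alike on both diets, at r = 0.50 and 0.52, neither of them called (adjusted p = 0.448 and 0.228), with 0.79 and 0.73 in batch 1 and 0.19 and 0.28 in batch 2. Irs1 and Irs2 had r = 0.06 on CD and 0.08 on HFD, and Grb10 and Grb14 0.26 and 0.24. Irs1 and Akt2 had r = 0.51 on CD and 0.34 on HFD, and on CD this was 0.30 without the 2 farthest strains.

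**Figure D5:**
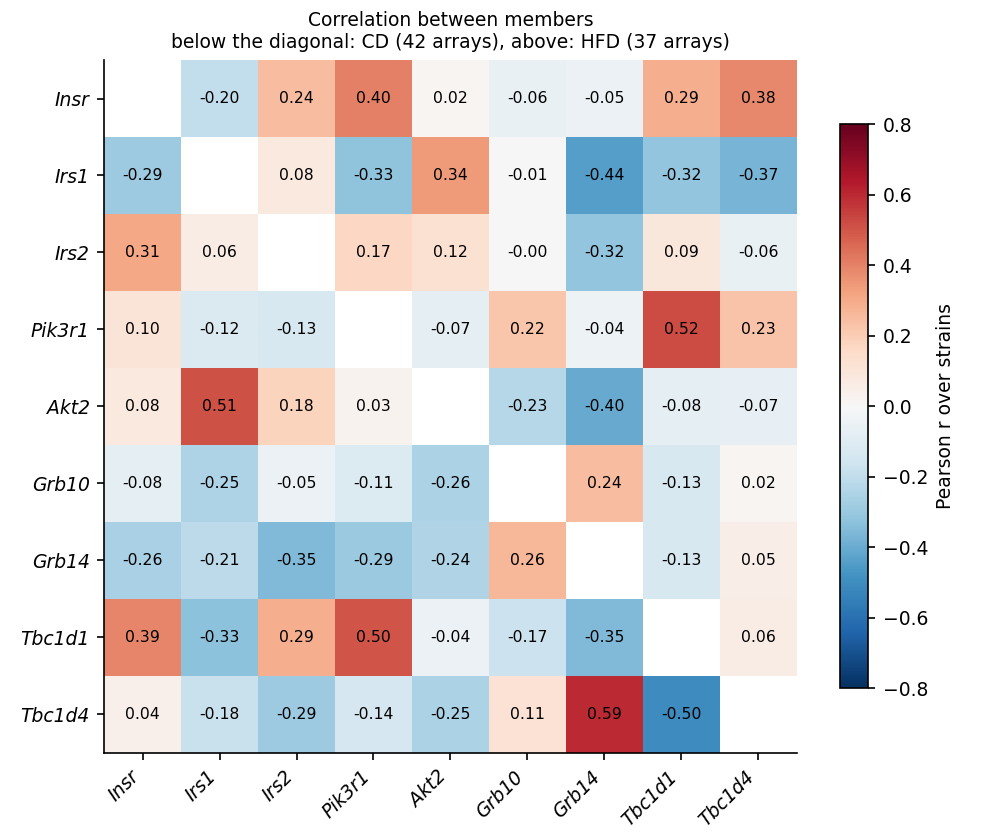
Pearson r over strains between the 9 genes, batch means removed, with CD (42 arrays) below the diagonal and HFD (37 arrays) above it and colour running from blue (negative) to red (positive). Grb14 with Tbc1d4 is at 0.59 on CD and 0.05 on HFD, and Pik3r1 with Tbc1d1 is at 0.50 and 0.52.

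The genes whose strain pattern was most like a member were ranked by the lower of its correlations on CD (42 arrays) and HFD (37 arrays). For Tbc1d1 these were Klhl38 (r = 0.72 and 0.64), Fbxo32 (0.74 and 0.63) and Arrdc3 (0.81 and 0.63), of which Fbxo32 encodes the muscle ubiquitin ligase atrogin-1. For Pik3r1 they were Cdkn1a (0.72 and 0.71), a cell-cycle inhibitor, Fkbp5 (0.62 and 0.73), a glucocorticoid-responsive chaperone partner, and Slc43a3 (0.59 and 0.71). Irs1 went with Gprc5c (0.61 and 0.64) and Srf, serum response factor (0.57 and 0.62). Irs2 went with Sorbs3 (0.69 and 0.72), the autophagy kinase Ulk1 (0.67 and 0.77) and the chaperone Dnajb9 (0.63 and 0.62).

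For Tbc1d4 the nearest were Dnm3 (0.63 and 0.57), Fmo2 (0.57 and 0.53) and Cpt1b (0.68 and 0.49), the muscle carnitine palmitoyltransferase. Grb14 went with the phosphatase Ptpn3 (0.69 and 0.71), adenylate kinase Ak4 (0.72 and 0.67) and Rmnd1 (0.67 and 0.70), and Insr with Dnajb6 (0.74 and 0.72) and Ssh2 (0.79 and 0.71). Akt2 had Mapkapk3 (0.64 and 0.59), Cnksr3 (0.63 and 0.59) and Tspan14 (0.59 and 0.58), and Grb10 the least alike, Adhfe1 (0.55 and 0.47), Rpl31 (0.45 and 0.50) and Fam63b (0.45 and 0.56). These correlations are descriptions, chosen as the highest of the whole array. Probesets of these genes were not checked by their neighbours in number, as those of the members were, so some may report other transcripts.

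On HFD, 19.2% of probesets were called as correlated with Insr, against 1.58% on CD and at most 2.03% for any other member on HFD. This rested on the HFD arrays of BXD79, BXD69 and BXD62, which were high for Insr (11.23, 11.30 and 11.18, median 10.97): over the other 34 arrays the share was 1.98%. Over all HFD arrays the Insr score also went with the olfactory receptor mean (r = -0.57, permutation p = 0.00021, rho = -0.44, permutation p = 0.00708), with the array median (r = -0.51, permutation p = 0.00132, rho = -0.43, permutation p = 0.00823) and with the endothelial marker mean (r = 0.47, permutation p = 0.00253, rho = 0.44, permutation p = 0.00664). Over the 34 arrays these r were -0.40, -0.31 and 0.49. They are 3 of 90 relations of the 9 members with 5 array measures on 2 diets, with no adjustment made. Of the other members on HFD, Pik3r1 had r = -0.49 with the olfactory receptor mean (permutation p = 0.0019). On CD, Tbc1d4 went with the endothelial marker mean (r = 0.42, permutation p = 0.00593, rho = 0.47, permutation p = 0.00162).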

How the data were processed

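The data are Affymetrix Mouse Gene 1.0 ST arrays of pooled quadriceps RNA from male BXD mice, grouped by diet and strain from the labels. The score values deposited by the authors were used as they are. Affymetrix Expression Console is named in the submitters' processing notes, while the log base, summarization, annotation build and batch correction are not given in the sources used here. No array pair held identical values, and the number of arrays limits the precision. All value columns were used, and a CD column headed BXD92 was read as sample BXD92a, its only match.

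Symbols were matched after stripping blanks. Diet was tested with limma 3.58.1 (lmFit, eBayes, R 4.3.3) with diet and batch over 79 arrays, adjusted by Benjamini-Hochberg over 35556 probesets. The tests were planned for log2 values and run on the scores. Correlations are Pearson r and Spearman rho with two-sided permutation p-values (100000 draws, smallest possible 1e-05), and their adjusted p-values come from the t distribution over all probesets. No member's strains fell into separate clusters. Python 3.11.15, numpy 2.4.6, pandas 2.3.3 and scipy 1.17.1 were used, and scripts were checked on simulated data. Student's t-test, named in the methods of the study, was an alternative. Other alternatives were the batch term, each batch, a strain block, centring, quantile normalization, removal of dim probesets, marker covariates and omission of strains.

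Arrays are paired by strain in the labels. Deviations from the diet means correlated at a median r of 0.214 within a strain (33 of 37 strains above 0.1) and -0.006 between strains.

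The members and lists were chosen with earlier results of these data known. Named were all members with every probeset, the 3 called pathway genes that differed most each way, and the 3 genes most like each member. Of these and the lists, 3 genes count in the totals but are not reported here. Further pathway genes, BXD43, BXD68, BXD79, BXD69, BXD62 and the motifs were picked once their values were known. In the main diet fit, p-values are set against the spread between arrays, each a pool of an inbred strain. That fit does not use the pairing. Strain and pool or array noise cannot be told apart in it. With strain as a block, p-values are set against the spread of the diet difference over strains.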

Additional observations from a re-analysis of the deposited data

How the results depend on the processing

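Of the 5 members called between diets, 0 were called in batch 1 alone, 2 in batch 2 alone (Irs1, Tbc1d4), 3 with each array centred on its median (Irs1, Grb10, Tbc1d4), 4 with the adipocyte mean added (all but Grb10) and 3 with the olfactory receptor mean added (Insr, Irs1, Irs2). The batches alone hold fewer arrays. The cause of the other changes was not tested. With strain as the replicate block the same 5 were called, also with the adipocyte mean in the blocked model, and 29 pathway genes (13 higher, 16 lower) against 21 (11 higher, 10 lower). No other call on a member changed under the block. The same 5 were called without the batch term, by the methods' t-test, with a trend in eBayes, after quantile normalization, after removal of dim probesets, with all probesets of a gene averaged and without BXD63, the parents, BXD68, BXD43 or the HFD arrays of BXD79, BXD69 and BXD62. The leave-out of BXD68, of BXD43 and of BXD79, BXD69 and BXD62, the other Akt2 probeset, the block combined with the adipocyte mean and the block without BXD63 were chosen after seeing the data. The 21 pathway calls (33.9%, 38.1% of all probesets) became 4 in batch 1 (6.45%, 12.6%), 10 in batch 2 (16.1%, 24.4%) and 12 with the adipocyte mean added (19.4%, 30.1%). The 5 members called for cross-diet correlation became 1 in batch 1 (Irs2, 2.92% of all probesets called), 1 in batch 2 (Grb10, 3.49%), 0 in strains with different batches (0.0%) and 3 without the parental strains (Grb10, Grb14, Tbc1d4, 9.81%), against 10.6% over all strains. Akt2 had r = -0.571 in strains whose arrays differed in batch, and without BXD43 it had r = 0.273 and was not called. Pik3r1 was called after quantile normalization and after removal of dim probesets. The strain range, a median of 1.163 on CD and 0.764 on HFD, was 0.541 and 0.454 between the 10th and 90th percentiles. No member was called between the parents, for diet by batch or with the adipocyte markers under any alternative run, although 1 member had an unadjusted p below 0.05 between the parents in the 4 parental arrays alone and 1 after quantile normalization.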
